A study of Rattus norvegicus with 14 samples.

Results

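The genes described here encode enzymes that build fatty acids and triglycerides, enzymes that burn fatty acids in mitochondria and peroxisomes, and the regulators Srebf1 and Ppara. They were chosen by name, as probes whose symbol in the platform annotation is 1 of 43 listed genes, 24 of synthesis and 19 of oxidation with ketogenesis. On the array 32 of the 43 were measured, by 35 of 4952 probes, among 4156 genes with a symbol. These were 15 genes of synthesis and 17 of oxidation. Scd, Elovl5, Elovl6, Pgd, Mlxipl, Thrsp, Dgat2, Mogat2, Lpin1, Bdh1 and Etfdh had no probe under those symbols.

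RNA came from small intestine of rats, perfused for 4 h or 20 min with solutions labelled HF and HG. The age is given as 20 days for the first 5 arrays and as 20 without a unit for the others that carry tissue RNA. HF and HG are read here, from knowledge of the study, as high fructose and high glucose, since no label explains them. Each of 5 arrays at 4 h and 4 arrays at 20 min set an HF sample against the HG sample of the same number, and 3 further arrays held 1 RNA of the 4 h perfusion against itself (self-self arrays, named by that RNA as 1HG, 3HG and 3HF). Array 6 was a second array of pair 2 at 4 h, and another array carried only the primers of the labelling kit. No strain, sex or genotype is given, no group is labelled as unperfused intestine, and the labels do not say whether pairs came from different animals, so p-values measure only the spread between these arrays. By their titles the self-self arrays carry RNA that is also on 4 h arrays 1 and 3, so these groups are not independent. A self-self array holds no difference between samples, yet its spread was pooled with that between pairs.

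Each value is a log ratio of the 2 channels of an array, treated as log2 and centred on the array's median. A positive ratio probably stands for more RNA in the HF sample. The basis is Slc2a5, the gene of the fructose transporter GLUT5, which fructose is known to induce. Its ratio was 1.53, 1.62, 1.95, 1.84 and 1.33 on the 4 h arrays and -1.66 on array 6, whose title marks its samples with a 5 and a 3, read as Cy5 and Cy3. On the 20 min arrays Slc2a5 read -0.38, -0.01, -0.43 and -0.44, so it gives no basis for the direction there, which is assumed to be the same. The dyes of the other arrays are not given, so direction and base of the logarithm are inferences. A ratio gives no level, so neither the tissue nor the abundance of a gene could be checked, and a change per cell cannot be told apart from a change in the number of cells.

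The self-self array 1HG stood apart. Its ratios had an SD of 1.39 over all probes, against 0.303 and 0.346 on the other self-self arrays, and 227 of its probes lay beyond 2 in either direction. Of these, 147 were among the first 750 probe numbers. A further 79 were among the highest probe numbers, a range that includes the probes of Acly (4703) and Acadm (4850). Of the 32 differences from the self-self arrays at 4 h, 16 moved by over 1.5 times or changed sign without 1HG, 10 did without 3HG and 8 did without 3HF. The 4 acyl-CoA dehydrogenases and Dgat1 were among those that did neither, though this concerns the size of a difference and not its p. The probes of Acads, Dgat1 and Acadm lie within the ranges of probe numbers given above, and read -0.05, -0.08 and -0.18 on 1HG.

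Fatty acid synthesis starts when ATP citrate lyase turns exported citrate into acetyl-CoA, which acetyl-CoA carboxylase makes into malonyl-CoA and fatty acid synthase joins into chains. Malonyl-CoA also blocks the carnitine palmitoyltransferase that lets fatty acids enter mitochondria, so the pathways are known to oppose each other. In liver, fructose is a well known inducer of synthesis through the factors SREBP-1c and ChREBP, while PPAR-alpha drives genes of oxidation. In enterocytes the same acyl-CoA pool feeds the triglycerides that leave in chylomicrons.

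The acyl-CoA dehydrogenases among the listed genes, which carry out the first step of each round of beta-oxidation, are described below at most length. The promoters of the 3 that were matched are therefore shown. The windows run from 250 bases before to 50 bases after the gene start, from RefSeq on assembly GRCr8, and lie at chr12:47154083-47154382 (plus strand), chr10:55236656-55236955 (minus strand) and chr2:245542815-245543114 (minus strand). Capitals mark the nuclear receptor half-site AGGTCA and the GC box GGGCGG, each searched on both strands.
Acads: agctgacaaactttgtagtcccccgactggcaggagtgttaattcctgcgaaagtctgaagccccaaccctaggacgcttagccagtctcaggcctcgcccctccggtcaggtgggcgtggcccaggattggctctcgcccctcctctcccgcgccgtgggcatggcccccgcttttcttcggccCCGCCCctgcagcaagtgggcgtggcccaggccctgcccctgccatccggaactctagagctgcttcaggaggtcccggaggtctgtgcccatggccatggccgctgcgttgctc
Acadvl: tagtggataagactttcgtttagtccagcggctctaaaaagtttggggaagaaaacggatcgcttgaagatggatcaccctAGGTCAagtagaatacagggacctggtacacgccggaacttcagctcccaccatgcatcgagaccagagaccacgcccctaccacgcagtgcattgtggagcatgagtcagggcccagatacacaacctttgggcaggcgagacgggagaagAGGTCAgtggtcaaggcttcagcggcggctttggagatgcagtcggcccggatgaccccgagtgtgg
Acadm: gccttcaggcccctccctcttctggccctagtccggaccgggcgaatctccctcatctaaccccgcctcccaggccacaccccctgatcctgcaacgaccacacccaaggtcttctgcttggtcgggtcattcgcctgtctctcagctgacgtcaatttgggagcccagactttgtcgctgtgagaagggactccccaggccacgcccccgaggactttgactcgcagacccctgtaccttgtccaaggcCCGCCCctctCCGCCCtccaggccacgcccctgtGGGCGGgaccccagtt

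Acadvl held the half-site at 2 places and no GC box, while Acads held 1 GC box and Acadm 3, with no half-site in either. Promoters were matched for 25 of the 32 genes, 12 of synthesis and 13 of oxidation. The half-site stood in 1 of the 12 and 3 of the 13, against 14.2% of 21842 promoters of protein-coding genes. The GC box stood in 7 of 12 and 11 of 13, against 41.8%, and the CCAAT box in 8 of 12 and 5 of 13, against 38.0%. The sterol element core TCACNCCAC stood in 0 of 12 and 1 of 13, against 1.03%. The estrogen-related receptor half-site TNAAGGTCA stood in 0 of 12 and 0 of 13, against 1.01%. The E-box CACGTG, a letter pattern read by factors such as ChREBP, stood in 0 of the 25, against 7.01%. The direct repeat 1 motif, typical of PPAR-alpha sites, stood in 0 of the 25 and in 0.0229% of all promoters. These are matches of letters in short windows and describe the sequences alone.

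**Figure D1:**
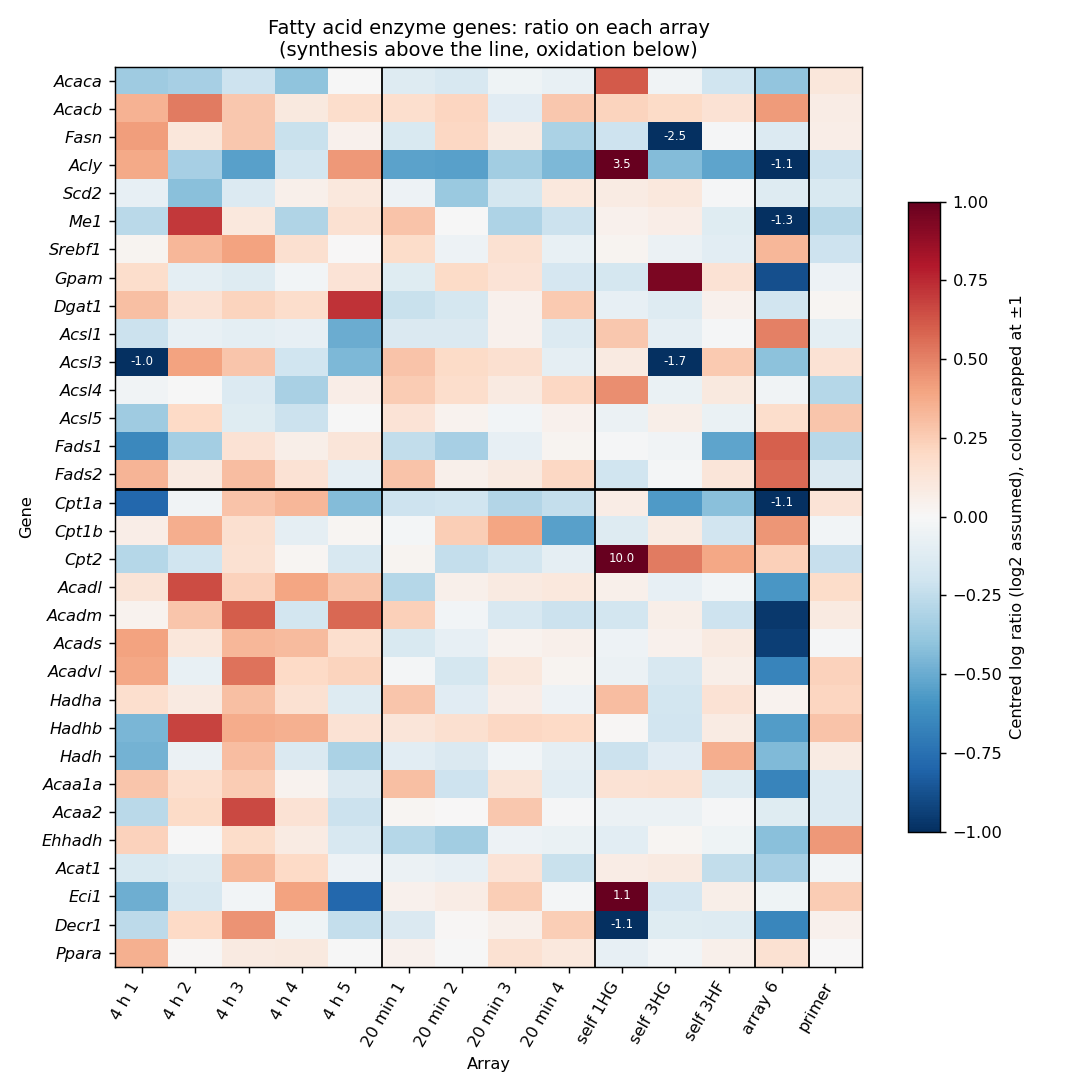
Centred log ratio (log2 assumed) of the 32 fatty acid enzyme genes (rows) on the 14 arrays (columns), with colour capped at 1 in either direction and values beyond it printed. The 4 acyl-CoA dehydrogenase rows are mostly red at 4 h, pale at 20 min and on the self-self arrays, and blue on array 6, and the most extreme cell is Cpt2 on the self-self array 1HG (9.98).

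The first question was whether the HF to HG ratio of these genes at 4 h differed from that of the self-self arrays. None of the 32 passed limma's test at an adjusted p of 0.05 over all features, where 3 of 4682 features did (0.0641%). At an unadjusted p below 0.05 stood 7 of the 32 genes (21.9%), against 9.97% of all features. Without 1HG these were 4 of 32 (12.5%), against 8.78%, and without 3HG 6 of 32 (18.8%), against 12.3%. With only the compared groups in the fit these were 3 of 32 (9.38%), against 7.97%. With array 6 averaged in as deposited they were 3 of 32 (9.38%), against 6.96%. The 7 with all arrays were Acads, Acadl, Acadvl and Dgat1, beside Acaca, Cpt2 and Fasn, each with a ratio that stood apart on 1 self-self array. Of Acads, Acadl, Acadvl and Dgat1 only Acadl remained without 1HG, none without 3HG and all without 3HF. Of the 17 oxidation genes 14 had a difference above 0, with a median of 0.14, and of the 15 synthesis genes 8 did, with a median of 0.06, against 48.5% of all features and a median of -0.01. On 4 h arrays 1 to 5 the ratio itself was above 0 in 9, 10, 16, 13 and 6 of the 17 oxidation genes. The oxidation medians on these arrays were 0.04, 0.09, 0.30, 0.15 and -0.13, so the arrays differed among themselves. With 1 array left out in turn the oxidation count lay between 12 and 14 and the median difference between 0.08 and 0.21. The synthesis median changed sign, between -0.10 and 0.11. The median was -0.10 without the self-self array 3HF and -0.07 without 4 h array 2.

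The acyl-CoA dehydrogenases handle chains of different length. Acads, for short chains, had ratios of 0.40, 0.11, 0.34, 0.32 and 0.17 on the 4 h arrays, of -0.16, -0.08, 0.04 and 0.05 on the 20 min arrays, and of -0.05, 0.04 and 0.09 on the self-self arrays. All 5 arrays at 4 h lay above every other array of these groups. Its difference from the self-self arrays was 0.24 ± 0.10 (SE; 1.18-fold; 95% interval 0.03 to 0.45; limma adjusted p = 0.448).

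Acadl, for long chains, had ratios of 0.13, 0.65, 0.23, 0.39 and 0.28 at 4 h, of -0.29, 0.05, 0.09 and 0.11 at 20 min, and of 0.05, -0.08 and -0.03 on the self-self arrays. The 4 h arrays again lay above all the others, by a narrow margin at array 1. The difference was 0.36 ± 0.13 (SE; 1.28-fold; 95% interval 0.07 to 0.64; limma adjusted p = 0.408).

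Acadvl, for very long chains, had ratios of 0.39, -0.07, 0.54, 0.20 and 0.22 at 4 h, of -0.02, -0.18, 0.11 and 0.03 at 20 min, and of -0.05, -0.16 and 0.06 on the self-self arrays. Here 4 h array 2 lay within the range of the others. The difference was 0.31 ± 0.13 (SE; limma adjusted p = 0.469).

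Acadm, for medium chains, varied most among the 4, with ratios of 0.04, 0.28, 0.61, -0.18 and 0.57 at 4 h and of 0.24, -0.03, -0.16 and -0.21 at 20 min. On the self-self arrays it was -0.18, 0.06 and -0.21. The groups overlapped, and the difference was 0.37 ± 0.18 (SE; limma adjusted p = 0.492). On array 6 all 4 genes were negative, at -0.94 for Acads, -0.58 for Acadl, -0.66 for Acadvl and -0.96 for Acadm. Of all features 46.6% lay on 1 side of the self-self median at 4 h and on the other on array 6, so most features did not turn. Of the 17 oxidation genes 9 turned, and of the 15 synthesis genes 6. Array 6 also had a wide spread, with an SD of 0.824 over all probes and 226 probes beyond 2 in either direction. On the other 4 h arrays the SD lay between 0.356 and 0.401, with 8 to 25 such probes.

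**Figure D2:**
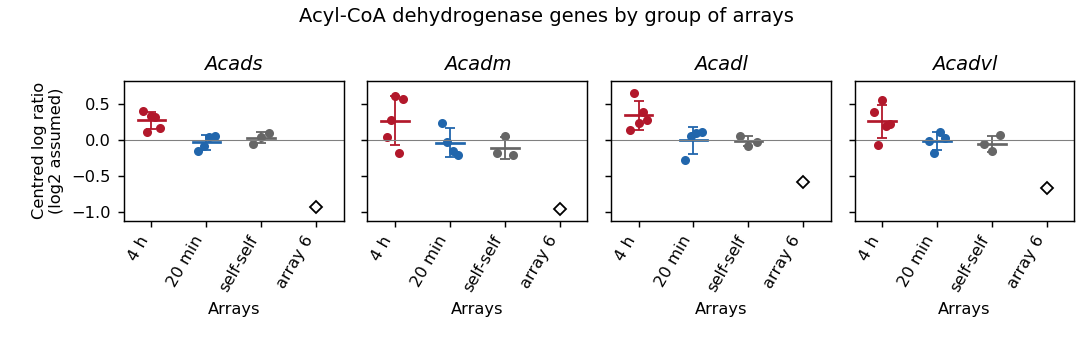
Centred log ratio (log2 assumed, vertical axis) of the 4 acyl-CoA dehydrogenase genes on the 4 h (n = 5), 20 min (n = 4) and self-self (n = 3) arrays, with bars at the mean and SD and a diamond for array 6. Mean ratios at 4 h lay between 0.26 and 0.34, and those on the 20 min and self-self arrays between -0.11 and 0.03.

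The carnitine steps that admit fatty acids to mitochondria had mixed values. Cpt1a, the liver form of the outer enzyme, ranged from -0.79 to 0.33 at 4 h, with a mean of -0.13 ± 0.48 (SD, n = 5), against -0.30 ± 0.34 (n = 3) on the self-self arrays. Cpt1b, the muscle form, averaged 0.10 ± 0.17 at 4 h (SD, n = 5), against -0.08 ± 0.14 (n = 3) on the self-self arrays. Cpt2, the inner enzyme, had the largest fitted difference of the 32 genes, -3.72 ± 1.65 (SE; limma adjusted p = 0.492). Its ratios were -0.28, -0.20, 0.15, 0.02 and -0.16 at 4 h and 9.98, 0.52 and 0.38 on the self-self arrays 1HG, 3HG and 3HF. Without 1HG the difference was -0.55. The 4 h arrays still lay below all 3 self-self arrays. The Cpt2 ratio on 3HG, 0.52061, was the same as that of Insig1 on that array, and the reason was not examined.

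For the later steps of beta-oxidation the 4 h and self-self arrays overlapped in every gene measured. Hadha and Hadhb, the subunits of the mitochondrial trifunctional protein, stood at 0.03 and 0.25, with Hadhb ranging from -0.45 to 0.68 at 4 h. Hadh, the short chain hydroxyacyl-CoA dehydrogenase, stood at -0.15 and the mitochondrial thiolase gene Acaa2 at 0.14. The peroxisomal genes Ehhadh, a bifunctional enzyme, and Acaa1a, a thiolase, stood at 0.11 and 0.06. Acat1, a thiolase of ketone body metabolism, stood at 0.06, and Ppara, the nuclear receptor, at 0.13. Eci1 (-0.54) and Decr1 (0.46), which handle unsaturated chains, both had an extreme ratio on 1HG, at 1.07 and -1.08, and without it stood at -0.16 and 0.15. The signs of Hadha, Hadh, Acaa1a and Acat1 turned when 1 self-self array was left out. Their limma adjusted p was 0.492 or higher.

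Among the synthesis genes Dgat1, which adds the last acyl chain of a triglyceride, had the smallest p. Its ratios were 0.30, 0.14, 0.22, 0.17 and 0.72 at 4 h, of -0.22, -0.17, 0.05 and 0.26 at 20 min, and -0.08, -0.13 and 0.04 on the self-self arrays. The 4 h arrays lay above the self-self arrays without overlap, and array 5 lay well above the rest. The difference was 0.37 ± 0.15 (SE; 1.29-fold; 95% interval 0.04 to 0.70; limma adjusted p = 0.448), and 0.27 without 4 h array 5.

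Acaca, the carboxylase of the cytosol that makes malonyl-CoA for synthesis, had ratios of -0.35, -0.33, -0.21, -0.40 and 0.00 at 4 h, of -0.13, -0.16, -0.05 and -0.07 at 20 min, and of 0.61, -0.04 and -0.20 on the self-self arrays. The difference of -0.38 ± 0.16 (SE; limma adjusted p = 0.466) was -0.14 without 1HG. The gene was measured by 4 probes, with means at 4 h of -0.51, -0.23, -0.24 and -0.06, and the probe with the lowest mean read 3.15 on 1HG. Their differences from the self-self arrays were -1.49, -0.16, -0.02 and 0.14, so the probes disagreed in size and sign. Acacb, the mitochondrial carboxylase whose malonyl-CoA restrains oxidation, was positive on all 5 arrays at 4 h (0.10 to 0.52) but also on all 3 self-self arrays (0.15 to 0.22), and its difference was 0.09 ± 0.12 (SE; limma adjusted p = 0.818).

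Fasn, the fatty acid synthase, had ratios of 0.42, 0.11, 0.27, -0.22 and 0.04 at 4 h, against -0.21, -2.51 and -0.02 on 1HG, 3HG and 3HF. Its difference of 1.04 ± 0.44 (SE; limma adjusted p = 0.466) was 0.24 without 3HG. Acly, the ATP citrate lyase, ranged from -0.54 to 0.44 at 4 h and read 3.48, -0.43 and -0.53 on the self-self arrays, which gave a difference of -0.89 ± 0.72 (SE; limma adjusted p = 0.662). Without 1HG the difference was 0.43, of opposite sign. Me1, the malic enzyme that supplies NADPH, ranged from -0.30 to 0.71 at 4 h. Srebf1, which encodes SREBP-1, was at or above 0 on all 5 arrays at 4 h (0.03, 0.33, 0.40, 0.16 and 0.01), against 0.03, -0.06 and -0.11 on the self-self arrays. The groups overlapped, and the difference was 0.23 ± 0.12 (SE; 95% interval -0.02 to 0.48; limma adjusted p = 0.492).

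**Figure D3:**
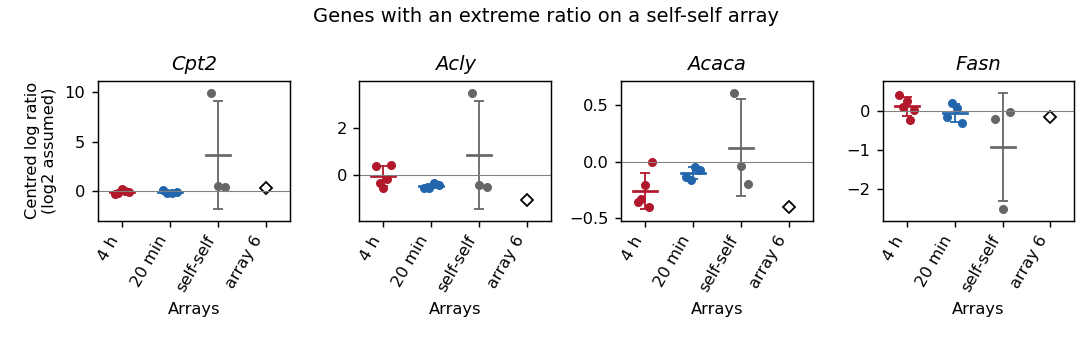
Centred log ratio (log2 assumed, vertical axes of different range) of Cpt2, Acly, Acaca and Fasn on the 4 h (n = 5), 20 min (n = 4) and self-self (n = 3) arrays, with bars at the mean and SD and a diamond for array 6. A single self-self array stands apart in each panel, at 9.98 for Cpt2, 3.48 for Acly, 0.61 for Acaca and -2.51 for Fasn.

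The long chain acyl-CoA synthetases, which activate fatty acids for either fate, did not share a direction. Acsl1 was negative on all 5 arrays at 4 h (-0.50 to -0.08) and had a difference of -0.25 ± 0.12 (SE; limma adjusted p = 0.492), which was -0.14 without 1HG. Acsl4, the form with a preference for arachidonic acid, stood at -0.25, and at -0.10 without 1HG. Acsl5 stood at -0.07, and at -0.04 without 3HG. Acsl3 stood at 0.27, with ratios between -1.01 and 0.41 at 4 h and a ratio of -1.73 on 3HG, and at -0.37 without that array. The desaturases Fads2 (0.19, and 0.11 without 1HG), Fads1 (0.06, and -0.11 without 3HF) and Scd2 (-0.15) had groups that overlapped. Gpam, the glycerol phosphate acyltransferase, stood at -0.29, with a ratio of 0.94 on 3HG, and at 0.03 without that array. Over the 32 genes the 4 h and self-self arrays did not overlap in 4, namely Acads, Acadl and Dgat1 on the positive side (3.31% of all features) and Cpt2 on the negative side (3.4%), against 6.71% of features in either direction.

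The second question was the same after 20 min. None of the 32 genes passed limma's test, against 2 of 4682 features (0.0427%), and 0 of 32 had an unadjusted p below 0.05, against 5.21% of features. The median difference from the self-self arrays was 0.01 for oxidation (9 of 17 above 0) and 0.01 for synthesis (8 of 15 above 0), against 0.00 over all features with 50.6% above 0. The groups did not overlap in 2 genes, Hadhb on the positive side (3.57% of features) and Cpt2 on the negative side (3.44%), against 7.01% in either direction. These differences share their self-self arrays with those at 4 h.

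Hadhb had ratios of 0.12, 0.16, 0.21 and 0.20 at 20 min, against 0.02, -0.19 and 0.08 on the self-self arrays, a difference of 0.20 ± 0.21 (SE; limma adjusted p = 0.949), which was 0.12 without 3HG. Fads2, the delta-6 desaturase, had a difference of 0.19 ± 0.13 (SE; limma adjusted p = 0.843), which was 0.10 without 1HG, and Ehhadh of -0.14 ± 0.12 (SE; limma adjusted p = 0.912). The larger differences rested on single self-self arrays. Cpt2 stood at -3.75 and at -0.58 without 1HG, Decr1 at 0.48 and 0.17 without 1HG, and Acly at -1.31 and 0.01 without 1HG. Fasn stood at 0.87 and 0.07 without 3HG, and Acsl3 at 0.60 and -0.04 without 3HG. Their adjusted p lay between 0.801 and 0.881 with all arrays. Acly itself was even across the 20 min arrays, at -0.54, -0.54, -0.35 and -0.45, close to its ratios of -0.43 and -0.53 on 3HG and 3HF.

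**Figure D4:**
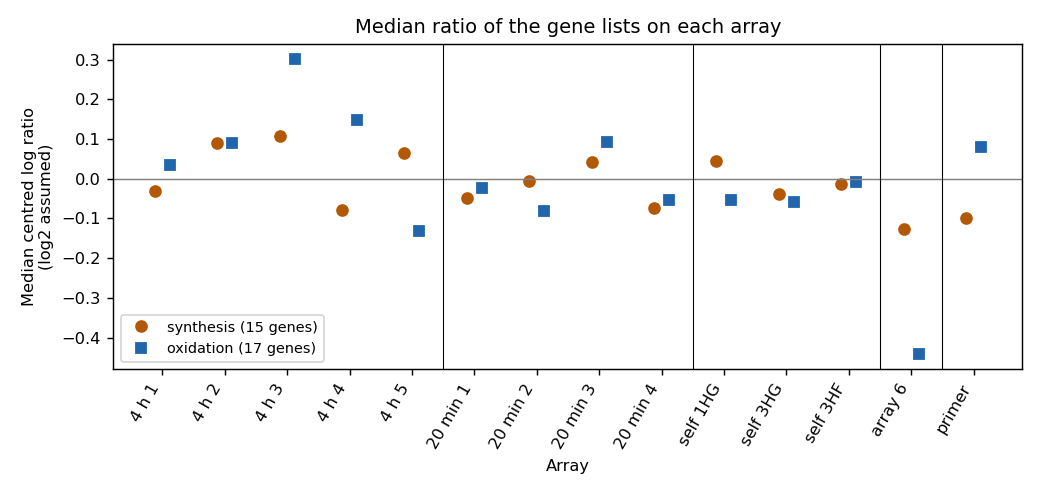
Median centred log ratio (log2 assumed, vertical axis) of the 15 synthesis and 17 oxidation genes on each of the 14 arrays. The oxidation median lay between -0.13 and 0.30 on the 4 h arrays, between -0.08 and 0.09 at 20 min and between -0.06 and -0.01 on the self-self arrays, and was -0.44 on array 6.

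The third question was whether the ratio differed between 4 h and 20 min, a comparison in which the self-self arrays enter only through the shared estimate of spread and a dye effect common to both sets cancels. It assumes that the ratio ran in the same direction at both times. None of the 32 genes passed limma's test, against 28 of 4682 features (0.598%), and 6 of 32 (18.8%) had an unadjusted p below 0.05, against 13.5% of features. Of the 17 oxidation genes 14 had a higher ratio at 4 h (median difference 0.08) and of the 15 synthesis genes 10 did (median 0.02), against 48.0% of all features and a median of -0.01. These differences share their 4 h arrays with the first comparison.

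Acads had the smallest p, with a difference of 0.31 ± 0.09 (SE; 1.24-fold; 95% interval 0.11 to 0.50; limma adjusted p = 0.16), followed by Acadl at 0.35 ± 0.12 (SE; 95% interval 0.08 to 0.61; limma adjusted p = 0.227). Ehhadh had ratios of 0.23, -0.01, 0.18, 0.08 and -0.16 at 4 h, against -0.29, -0.35, -0.05 and -0.07 at 20 min, a difference of 0.25 ± 0.10 (SE; limma adjusted p = 0.309). Acadvl stood at 0.27 (limma adjusted p = 0.361) and Dgat1 at 0.33 (limma adjusted p = 0.314). Acsl4 ran the other way, with ratios of -0.03, -0.01, -0.13, -0.32 and 0.06 at 4 h, against 0.25, 0.17, 0.09 and 0.21 at 20 min. Its groups did not overlap, and the difference was -0.27 ± 0.12 (SE; 95% interval -0.52 to -0.01; limma adjusted p = 0.344). Acsl5 (-0.15) and Acacb (0.15, and 0.07 without 20 min array 3) had adjusted p of 0.619 and 0.604 in limma. Groups without overlap were found for 3 of the 32 genes, Acads and Acadl on the positive side (3.42% of features) and Acsl4 on the negative side (3.12%), against 6.54% in either direction.

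Genes of neighbouring steps were followed through 6 further lists. The gene called among them was Gpd1, between 4 h and 20 min, a comparison in which 28 of 4682 features were called (0.598%). It encodes the cytosolic glycerol phosphate dehydrogenase that makes the glycerol backbone of triglycerides from a glycolytic intermediate. Its ratios were 0.51, 0.58, 0.75, 0.32 and 0.47 at 4 h, against 0.07, -0.11, -0.31 and -0.09 at 20 min, and 0.12, -0.08 and 0.15 on the self-self arrays. All 5 arrays at 4 h lay above all the others, and array 6 read -0.54. Gpd1 was higher at 4 h than at 20 min by 0.64 ± 0.11 (SE; 1.55-fold; limma adjusted p = 0.0297), and its difference from the self-self arrays was 0.46 ± 0.12 (SE; limma adjusted p = 0.236). The call was lost with 1 array left out in 7 of 12 fits. Its adjusted p was 0.0663, 0.0679 and 0.0516 without 4 h arrays 1, 2 and 3, then 0.103, 0.109 and 0.0857 without 20 min arrays 2, 3 and 4, and 0.0511 without 3HF. With the replicate number as a block it was 0.122.

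**Figure D5:**
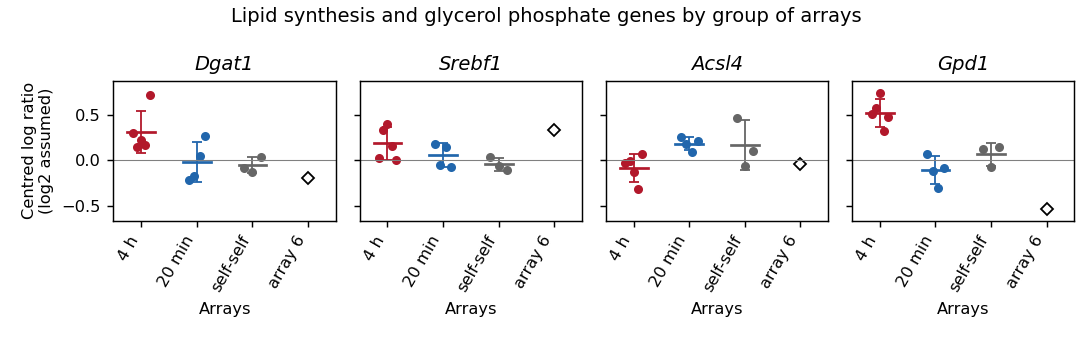
Centred log ratio (log2 assumed, vertical axis) of Dgat1, Srebf1, Acsl4 and Gpd1 on the 4 h (n = 5), 20 min (n = 4) and self-self (n = 3) arrays, with bars at the mean and SD and a diamond for array 6. Gpd1 lies between 0.32 and 0.75 at 4 h and between -0.31 and 0.07 at 20 min.

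In the list of triglyceride assembly and lipolysis 8 genes were measured, with Gpd1 called between the times and 0 called lower. Lipa, the lysosomal acid lipase, had ratios of -0.60, -0.17, -0.43, -0.86 and -0.73 at 4 h, against 0.04, 0.17, 0.00 and -0.27 at 20 min, and -0.10, -0.10 and 0.01 on the self-self arrays. It differed by -0.50 ± 0.15 from the self-self arrays (SE; limma adjusted p = 0.341). The other 5 lists had 0 calls in any comparison. In the list of peroxisomal oxidation, with 15 measured genes and a median of -0.03 at 4 h against the self-self arrays, Pecr, a trans-enoyl-CoA reductase, stood at 0.62 and Hacl1, which shortens branched chains, at 0.42. The mean ratio of Pecr at 4 h was -0.03, while the self-self arrays read -0.74, -0.68 and -0.55, and its difference at 20 min was 0.51. In that of further mitochondrial oxidation and ketones (12 measured, median -0.05), Pdk1, a kinase that restrains pyruvate dehydrogenase, stood at 0.32, and at 0.11 without 1HG. Hsd17b10 stood at 0.39, and at -0.02 without 3HG. Ivd and Acadsb, also acyl-CoA dehydrogenases, stood at -0.14 and 0.10 (limma adjusted p = 0.809 and 0.852). Among genes that supply NADPH and citrate (4 measured, median 0.10), Mdh1 stood at 0.27 and Idh1 at 0.26, the last at 0.10 without 3HF.

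The nuclear receptor Pparg (0.40 ± 0.13, SE; limma adjusted p = 0.358) had the smallest p among the 9 measured genes of SREBP and sterol-sensing control, whose median was 0.05. Its ratios were 0.26, 0.10, 0.49, 0.12 and 0.59 at 4 h, and they were as high at 20 min, at 0.30, 0.50, 0.15 and 0.45, while the self-self arrays read -0.11, -0.14 and -0.01. Insig1, which holds SREBP in the endoplasmic reticulum, had a fitted difference of 3.88 through a ratio of -12.8 on 1HG, and of -0.51 without that array. Among 12 genes of fatty acid uptake and activation (median 0.01) Fabp2, the fatty acid binding protein of enterocytes, stood at -0.56 and Acsm2 at 3.14, the last at 0.14 without 1HG.

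Markers of cell types were set beside these results. Of 11 measured enterocyte genes 7 were below 0 at 4 h against the self-self arrays (median -0.14), with 0 called. Of all 4682 features 2413 were below 0 there. Of 7 adipocyte genes 4 were above 0 at 4 h (median 0.06). Of 8 striated muscle genes 5 were below 0 (median -0.07), and of 10 pancreas genes 8 (median -0.28). For hepatocyte, smooth muscle, immune, goblet and Paneth, enteroendocrine and enteric neuron and glia genes the medians at 4 h lay between -0.17 and 0.14, with 0 called. At 4 h against 20 min 8 of 11 enterocyte genes were below 0 (median -0.24), with 0 called, against 2433 of 4682 features. Also below 0 were 9 of 11 hepatocyte, 7 of 8 striated muscle, 6 of 7 enteroendocrine and 5 of 6 smooth muscle genes. Fewer were below 0 in the other lists, with 5 of 10 pancreas, 3 of 7 adipocyte and 3 of 8 immune genes. The counts were 1 of 5 for goblet and Paneth and 2 of 10 for enteric neuron and glia genes. The part of any cell type in the ratios of the fatty acid genes was not tested. On the primer array the 32 genes lay between -0.28 and 0.44, with a median of 0.08 for oxidation and -0.10 for synthesis.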

How the data were processed

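Arrays of 2 colours measured RNA of rat small intestine. The authors deposited 1 table of log ratios, read here as log2 values with base and direction unstated, 4952 probes and 14 arrays with 0 missing values. Scanner, background correction, normalization and labelling of the tissue arrays are not stated in the labels or the table. Column medians lay between -0.07 and 0.02. No signal intensities were used, so no probe was left out as dim, and the number of arrays limits the precision.

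Probe names came from the platform annotation: 4426 probes have 1 symbol, 2 several and 524 none, and 4371 of the 4426 matched the GRCr8 gene table by Entrez identifier, with 0 symbols changed. Ratios were centred per array on the median, and probes of 1 symbol were averaged, which left 4682 features.

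A single fit with limma 3.58.1 in R 4.3.3 (lmFit, eBayes; 9 residual and 2.84 prior degrees of freedom) held 3 groups: 4 h (5 arrays), 20 min (4) and self-self (3). Array 6 and the primer array were left out, array 6 because its title points to swapped dyes. Earlier results of these data were known when array 6 was left out. The ratios of array 6 also had an SD of 0.824, against 0.356 to 0.401 on the other 4 h arrays, and 226 probes beyond 2 in either direction. A call needs an adjusted p (Benjamini-Hochberg, over all 4682 features) below 0.05, with 95% intervals from the same fit. Lists were described by counts and medians, with no set test. Steps were tested on simulated data.

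Described in full are, per comparison, the 4 synthesis and 4 oxidation genes with the smallest p, beside called genes of the other lists and their 2 smallest p at 4 h. Srebf1, Acadm and Acacb, and the 4 h differences of Ivd and Acadsb, were added after their values had been seen. Members and lists were chosen with earlier results of these data known. Alternatives covered array 6, centring, scaling, the control, weights, a replicate block and each array left out.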

Additional observations from a re-analysis of the deposited data

Results flagged for a closer look

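Single arrays stood apart from the rest of their group in 8 of 90 groups of arrays examined (45 genes at 2 times, the 32 fatty acid genes and 13 of the others named above), and chance gives about 1 in 20. At 4 h these were Dgat1 on array 5 (0.72, with the other arrays between 0.14 and 0.30) and Hacl1 on array 5 (1.02, others between 0.15 and 0.40). At 20 min Acadl read -0.287 on array 1, with the others between 0.05 and 0.11. The other such ratios at 20 min were those of Acaa2 on array 3 (0.272), Acsl1 on array 3 (0.0413), Idh1 on array 3 (-0.281), Slc2a5 on array 2 (-0.0146) and Acsm2 on array 3 (0.162), where Acsm2 is listed at exactly 0 on the other 3 arrays.

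The ratio differed between 4 h and 20 min in limma's test for Gpd1, by 0.636, and for Slc2a5, by 1.97 (adjusted p = 2.89e-05), the gene whose 4 h ratios helped to set the direction.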

How the results depend on the processing

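Not recomputed were the differences of Ivd and Acadsb, the 20 min difference of Pecr, the single probes of Acaca and the counts of groups without overlap. The same holds for the medians of the other lists and of the cell type markers. The differences of fatty acid genes, their medians and counts, and the 4 h differences of other named genes were recomputed under 23 to 25 other settings. So were those of Gpd1 and Slc2a5 between the times. The count of fatty acid genes called stayed at 0 in all these settings, except that 4 (Acads, Acadl, Dgat1 and Acacb) were called at 4 h when the ratio was tested against 0 without the self-self arrays. That setting called 763 features at 4 h and 384 at 20 min and keeps each probe's dye effect. There Dgat1 (0.31), Acadl (0.34), Acads (0.27), Acacb (0.28), Gpd1 (0.53), Hacl1 (0.42), Idh1 (0.33), Lipa (-0.56), Mdh1 (0.46) and Pparg (0.31) passed, Fasn at 20 min (-0.043) and, at 4 h, Gpam (0.012), Acsl3 (-0.19), Fads1 (-0.13), Cpt1a (-0.13), Insig1 (-0.16) and Pecr (-0.032) changed sign, and the synthesis median at 4 h was -0.049. With array 6 averaged in as deposited 0 features were called in all 3 comparisons, Slc2a5 (1.36 from the self-self arrays, 1.64 between the times) and Gpd1 (0.53 between the times) no longer passed, Me1 (-0.12) and Acaa1a (-0.019) at 4 h changed sign, and the synthesis median at 4 h was -0.076. Other changes of sign at 4 h were those of Fads1 with array 6 turned about the self-self mean (-0.00032) and with the replicate block (-0.0045), Hadha with arrays scaled to 1 spread (-0.0046) and Acly with quantile normalization (0.043). At 20 min 0 features were called with array 6 averaged in with its sign turned in either way, with arrays scaled to 1 spread, with only the compared groups in the fit and with the replicate block. Between the times 16 were called with arrays scaled to 1 spread and 12 with the replicate block, where Gpd1 stood at 0.65 and did not pass. Same-numbered arrays at 4 h and 20 min deviated with correlations of -0.07, 0.16, -0.03 and -0.02. Between arrays of different number the correlations lay between -0.17 and 0.20. Whether the numbers pair the arrays cannot be decided from these, since the noise of each array enters them. With 1 array left out, features called ranged from 2 to 5 at 4 h, from 0 to 4 at 20 min and from 4 to 43 between the times. The synthesis median ranged from -0.10 to 0.11, from -0.076 to 0.025 and from -0.03 to 0.08 in that order, and the oxidation median from 0.08 to 0.21, from -0.02 to 0.05 and from 0.03 to 0.12. The oxidation count above 0 at 20 min ranged from 6 to 13. Gpd1 between the times ranged from 0.57 to 0.70. Among printed differences, leaving out 1 array changed the sign of Acly (ranges -1.57 to 0.43 at 4 h and -1.99 to 0.011 at 20 min) and Acsl3 (-0.37 to 0.63 and -0.040 to 0.96), and at 4 h of Gpam (-0.53 to 0.031), Fads1 (-0.11 to 0.19), Me1 (-0.075 to 0.18), Hadha (-0.11 to 0.13), Hadh (-0.26 to 0.027), Acaa1a (-0.030 to 0.13), Acat1 (-0.047 to 0.12), Insig1 (-0.51 to 6.16) and Hsd17b10 (-0.024 to 0.73). Of the differences of fatty acid genes not printed, 17 of 24 at 20 min and 14 of 24 between the times changed sign in at least 1 setting. Counts above 0 and genes of the other lists were added to these settings after seeing the data.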

Other observations

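Ratios of exactly 0 occur in the deposited table only on the 20 min arrays, on 37, 53, 61 and 123 probes of arrays 1 to 4, and on 0 probes of the other 10 arrays. None of the 32 fatty acid genes has such a value. Among genes of the other lists Insig1, Nr1h3 and Cat are listed at 0 on all 4 arrays, and Acsm2 on 3. What an exact 0 stands for is not stated in the table. Leaving out the 176 features with such a value, a setting chosen after seeing the data, left 0 fatty acid genes called in each comparison.

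Several extreme self-self ratios sat on probes with neighbouring numbers. On 1HG the probes 504 (Eci1), 505 (Cpt2) and 506 (Acaca) read 1.07, 9.98 and 3.15. On 3HG the probes 195 (Fasn) and 196 (Acsl3) read -2.51 and -1.73. The position of these probes on the array was not analysed here.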
